A study of Mus musculus with 80 samples.

Results

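The Hox genes of mouse lie in 4 clusters, and the deposited expression table lists 39 of them among 25899 genes. They were chosen by symbol alone, as every gene named Hoxa, Hoxb, Hoxc or Hoxd with a number. In GRCm38, cluster A holds 11 of them on chromosome 6 (52155367 to 52260880), cluster B 10 on chromosome 11 (96194316 to 96368256), cluster C 9 on chromosome 15 (102921103 to 103036843) and cluster D 9 on chromosome 2 (74668310 to 74765143). Hox genes encode homeodomain transcription factors that give cells their position along the body axis and along the limb. Genes with the same number in different clusters are paralogues, and genes with low numbers are used anteriorly while those with high numbers are used posteriorly and distally. The extraocular muscles form from head mesoderm, in front of the Hox domains, whereas limb muscles come from somites that carry a Hox code.

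RNA was sequenced from muscle stem cells (MuSCs) of the extraocular muscles (EOM) and of the Tibialis anterior (TA), a muscle of the lower hindlimb, of 10 male donor mice. Every donor carried Tg:Pax7-nGFP, in which nuclear GFP follows Pax7, the transcription factor that marks MuSCs, on a C57BL/6;DBA2 F1/JRj background. Donors were 7.6 weeks old in Experiment 1 and 7 weeks old in Experiment 2. Pre-graft libraries each hold 500 sorted cells. For the grafts, EOM and TA cells of one donor were injected into separate TA muscles of one immunodeficient Rag2-/-;γC-/- recipient on C57BL/6J, injured a day earlier with cardiotoxin, so EOM and TA grafts share the host, the site and the injury. Grafted cells were sorted again on GFP at a time labelled day 21. No EOM cells were grafted into EOM, so a change of EOM cells in the host TA cannot be told apart from a change caused by injury, transplantation and sorting except through the TA grafts.

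Of 40 RNA libraries, 30 pass the quality table of the study and are compared here, 8 of EOM and 8 of TA pre-graft and 7 of each after grafting. Reads recovered on genes run from 2207178 to 4169357 in EOM pre-graft, from 963432 to 3414854 in TA pre-graft, from 1466429 to 2899135 in EOM grafts and from 1357233 to 2820839 in TA grafts. These totals are 23.5% to 32.0% of all reads counted in the deposited summary, while 68.7% to 80.9% of reads lie in exons by the deposited quality report. A read here is 1 step of the deposited values, and whether a step is 1 read or a read pair was not tested. One read is worth 0.350 to 1.55 RPM (reads scaled to library size) over these libraries, and no read allows a level of up to 1.05 to 4.64 RPM, which is what 3 reads would give. These limits cover counting error only, since copies made in amplification were not marked. By the labels, libraries of EOM grafts were made from a median of 35 re-isolated cells (lowest 9) and those of TA grafts from 26 (16 to 67), and the quality table of the study gives other numbers for some of them. Their mitochondrial genes take 5.59% to 81.1% of the reads on genes, against 2.96% to 28.8% pre-graft. All 12 MuSC markers had reads in every group, but their summed level was 13710 to 22882 RPM in the pre-graft libraries, 1496 to 14096 RPM in EOM grafts and 377 to 10964 RPM in TA grafts. Cell number, cell makeup and grafting therefore cannot be told apart in a comparison of grafts with pre-graft libraries, and in bulk RNA fewer cells of a type cannot be told apart from less RNA per cell.

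The 4 groups held different sets of Hox genes. A read was found for 6 of the 39 members in EOM pre-graft, 28 in TA pre-graft, 27 in EOM grafts and 32 in TA grafts, and only *Hoxc12* and *Hoxd12* had none in any of the 30 libraries. The summed level of all members was 1.69 ± 1.81 RPM in EOM pre-graft (SD, n = 8) and 186 ± 35.1 RPM in TA pre-graft (SD, n = 8). It was 42.6 ± 28.8 RPM in EOM grafts (SD, n = 7) and 120 ± 68.2 RPM in TA grafts (SD, n = 7). Scaled without mitochondrial genes, the means of the grafts were 90.9 and 195 RPM. The pre-graft means given above include mitochondrial genes in the scaling, so they are not comparable with these. Both kinds of graft thus held Hox RNA, and the summed levels overlapped, from 3.77 to 77.1 RPM in EOM grafts and from 44.3 to 245 RPM in TA grafts. The stages also differed in which paralogues made up the sum, as the heat map shows.

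**Figure D1:**
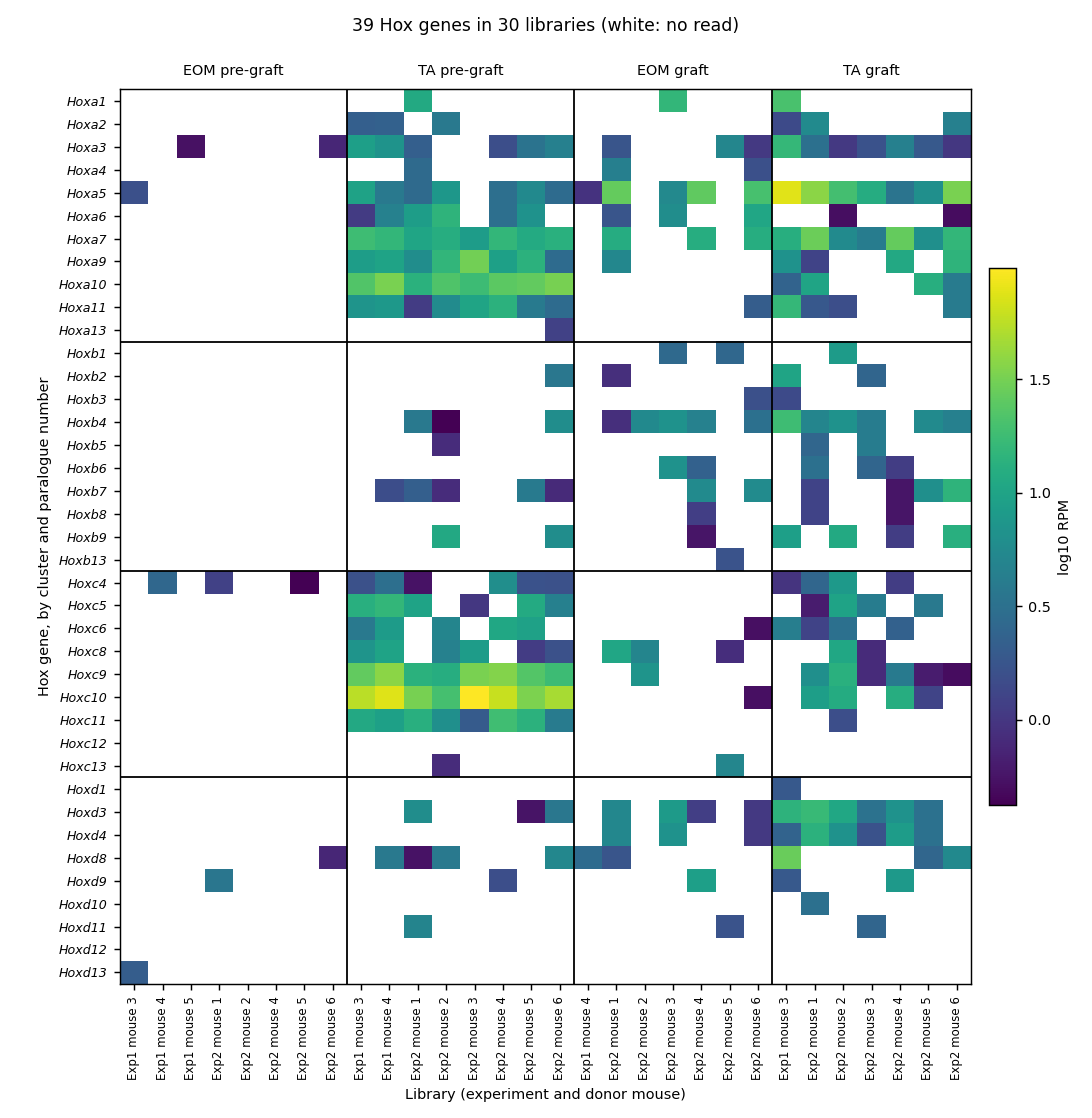
Level of each of the 39 Hox genes (vertical axis, by cluster and paralogue number) in each of 30 libraries (horizontal axis, by group), as log10 RPM, with white for no read. EOM pre-graft is nearly empty, TA pre-graft is filled in clusters A and C up to paralogue 11, and both kinds of graft fill clusters A, B and D more than the upper paralogues of cluster C.

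Paralogues 9 to 13, the posterior and distal members, made up the largest part of the Hox RNA in TA pre-graft. Their share of the summed level there was 58.1% to 91.3% (median 68.4%). In TA grafts the share was 7.41% to 39.9% (median 27.1%), below every TA pre-graft library, and in EOM grafts 0% to 50.0% (median 6.82%). As levels, these 16 members summed to 133 ± 38.8 RPM in TA pre-graft (SD, n = 8), 28.4 ± 13.9 RPM in TA grafts (SD, n = 7), 4.75 ± 3.98 RPM in EOM grafts (SD, n = 7) and 0.711 ± 1.37 RPM in EOM pre-graft (SD, n = 8). Paralogues 5 to 8 had a median share of 24.5% in TA pre-graft, 49.6% in TA grafts and 69.3% in EOM grafts, and paralogues 1 to 4 one of 4.36%, 29.6% and 23.9%. Paralogues 5 to 8 summed to 41.1 ± 15.0 RPM in TA pre-graft (SD, n = 8), 57.9 ± 34.7 RPM in TA grafts (SD, n = 7) and 25.5 ± 23.8 RPM in EOM grafts (SD, n = 7). Paralogues 1 to 4 summed to 11.1 ± 8.74 RPM in TA pre-graft (SD, n = 8), 33.4 ± 27.7 RPM in TA grafts (SD, n = 7) and 12.4 ± 13.4 RPM in EOM grafts (SD, n = 7). The ranges of TA pre-graft and of the grafts overlap for both of these bands, and sums over members were given no test.

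**Figure D2:**
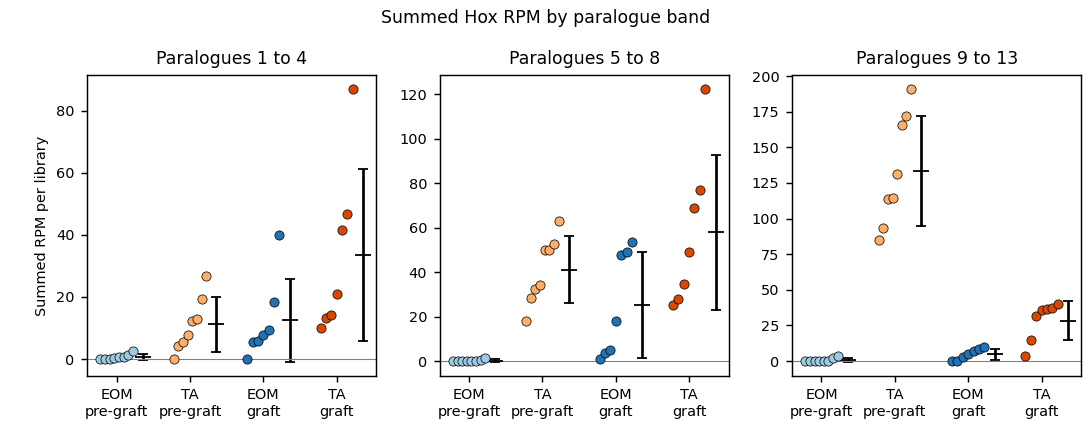
Summed RPM per library of Hox paralogues 1 to 4, 5 to 8 and 9 to 13 (vertical axes, linear) in the 4 groups (points are libraries, the bar to the right of each group is mean and SD). For paralogues 9 to 13 the TA pre-graft libraries lie between 84.9 and 191 RPM and the grafts at or below 39.9 RPM, whereas the other bands overlap.

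The first comparison asks which members tell TA from EOM MuSCs before grafting. In the fit over 13217 genes, 13 Hox genes passed the filter on low values and 13 were higher in TA, where 1.26% of all genes tested were called higher. Passing the filter required reads in TA, since EOM had almost none, so the direction was set by the filter and the other 26 members could not be called. With no filter 29 members were tested and 13 called higher (0.837% of all genes). The 13 that passed the filter come from clusters A (7 members) and C (6 members), and no member of clusters B or D was among them. The 7 members read in every TA library, *Hoxa7*, *Hoxa9*, *Hoxa10*, *Hoxa11*, *Hoxc9*, *Hoxc10* and *Hoxc11*, had no read in any EOM library, and their groups did not overlap, which held for 0.477% of all genes tested in that direction.

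Paralogue group 10 led the code of TA cells. *Hoxc10*, a posterior gene used in the hindlimb, had 40 reads in the lowest, 78.5 in the median and 194 in the highest TA library, or 19.7, 51.5 and 97.8 RPM, and no read in EOM. Per kb of exon its level was 27.7 ± 13.3 RPM (SD, n = 8), and it was the highest member per kb in 7 of 8 TA libraries. *Hoxa10*, its paralogue in cluster A, had 13.7, 23.5 and 32.996 RPM in the lowest, median and highest TA library, and 7.30 ± 2.00 RPM per kb (SD, n = 8). *Hoxc9* lay between these genes per kb, at 10.2 ± 4.05 RPM (SD, n = 8), and from 12.6 to 37.6 RPM with a median of 24.7 RPM. Neighbours in this order overlapped, as *Hoxc9* and *Hoxa10* did. As log2 differences of TA minus EOM, *Hoxc10* was at 6.81 ± 0.49 (SE), *Hoxc9* at 5.78 ± 0.49 and *Hoxa10* at 5.77 ± 0.47, with limma's adjusted p of 5.71e-09, 5.11e-08 and 3.3e-08. Against the mean level that 3 reads per EOM library would give, *Hoxc10* was at least 36.7-fold higher in TA, *Hoxc9* at least 17.3-fold and *Hoxa10* at least 16.6-fold.

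The other 4 members without overlap were lower on average. *Hoxa7*, a central gene of the trunk, had 8.57, 12.995 and 17.9 RPM in the lowest, median and highest TA library. *Hoxa9* had 2.84, 9.63 and 30.7 RPM. *Hoxc11* had 2.02, 10.3 and 18.6 RPM, and *Hoxa11*, which patterns the forearm and lower leg, had 1.10, 6.46 and 13.9 RPM. The EOM libraries had no read of these genes, which allows up to 1.05 to 1.95 RPM. The low of *Hoxa11*, 2 reads, lies within those limits, and the other lows lie above them. The log2 differences were 4.93 ± 0.47 for *Hoxa7*, 4.55 ± 0.54 for *Hoxa9*, 4.26 ± 0.55 for *Hoxc11* and 3.63 ± 0.56 for *Hoxa11* (SE).

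The remaining 6 called members, *Hoxa3*, *Hoxa5*, *Hoxa6*, *Hoxc5*, *Hoxc6* and *Hoxc8*, were missing from some TA libraries. They had a read in 5 to 7 of the 8, and their log2 differences ran from 2.22 ± 0.66 for *Hoxa3* to 3.21 ± 0.73 for *Hoxc5* (SE). *Hoxa5* also had 3 reads in 1 EOM library and *Hoxa3* 1 or 2 reads in 2 of them, so those groups overlap. *Hoxa3* and *Hoxc6* are the least stable of these calls, each kept in 3 of 16 fits that leave out 1 library (adjusted p up to 0.0767 and 0.0738 by limma). With all 20 libraries of these groups in the fit, the failing ones included, 3 members were called in place of 13 (0.194% of all genes). *Hoxc4* is the 1 member with reads in several libraries of both muscles, 1 to 4 reads in 3 of 8 EOM and in 6 of 8 TA libraries, and it did not pass the filter.

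Clusters B and D were sparse in TA pre-graft. Cluster B summed to 5.19 ± 6.498 RPM (SD, n = 8) and cluster D to 3.77 ± 4.31 RPM (SD, n = 8), against 71.4 ± 9.34 RPM for cluster A and 105.2 ± 38.6 RPM for cluster C. The paralogues of the genes that led clusters A and C were nearly unread in the other clusters, with *Hoxb9* in 2 of 8 libraries (27 and 15 reads), *Hoxd9* in 1 (1 read), *Hoxd11* in 1 (9 reads), and *Hoxd10* in none. Among the anterior and central members, *Hoxb7* had 2 to 7 reads in 5 of 8 libraries, *Hoxd8* 1 to 13 in 4, *Hoxb4* 1 to 15 in 3 and *Hoxd3* 1 to 11 in 3. *Hoxd4* had no read in any TA pre-graft library. The members of these clusters were read mainly in 3 libraries, those of mice 1, 2 and 6 of Experiment 2, which held 32, 41 and 63 reads of clusters B and D, while the other 5 held 0 to 8.

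Markers of endothelial cells were highest in the same 3 libraries. The summed level of 10 endothelial markers was 1689, 2862 and 2228 RPM in them and 19.7 to 510 RPM in the other 5. These 3 also had the lowest MuSC marker sums of the 8, at 15402, 13710 and 14529 RPM. Their mitochondrial shares, 28.8%, 24.7% and 22.6%, were the highest of the 8, so these traits cannot be told apart here. In the TA library with 19.7 RPM, that of mouse 3 of Experiment 2, clusters B and D had no read and paralogues 1 to 8 of all clusters summed to 18.1 RPM, the lowest of the 8, while paralogues 9 to 13 summed to 191 RPM and *Hoxc10* had 194 reads, the highest of the 8. All 10 endothelial markers had reads in every group, with summed ranges of 102 to 901 RPM in EOM pre-graft, 19.7 to 2862 RPM in TA pre-graft, 236 to 6680 RPM in EOM grafts and 1462 to 7792 RPM in TA grafts. Of the 10, 1 was called higher (1.26% of all genes) and 1 lower (3.31%) in TA than in EOM pre-graft. Over the 10 the median log2 difference of TA minus EOM was 3.03, against -0.30 over all genes tested. The sort used GFP, size and granularity, with no endothelial marker. The part of endothelial RNA in the reads of clusters B and D was not tested.

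**Figure D3:**
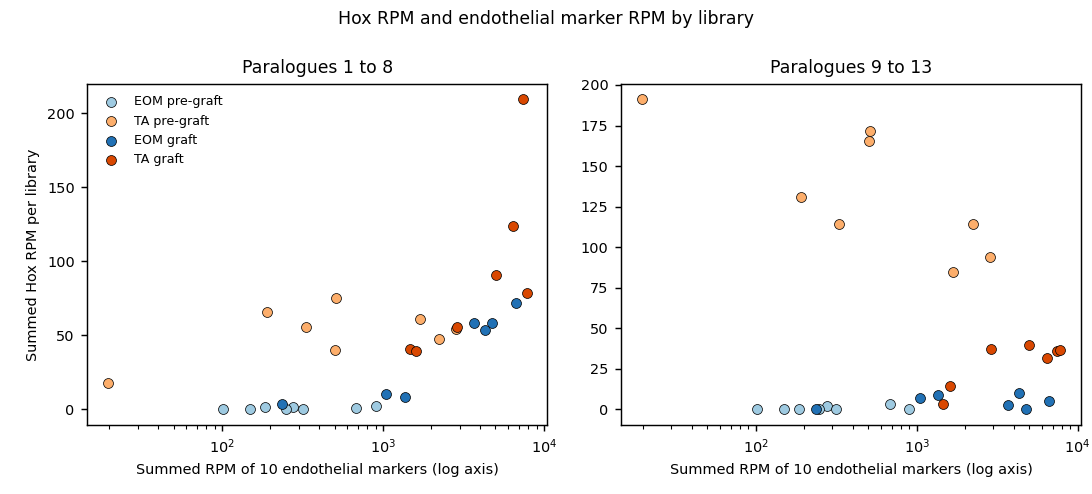
Summed Hox RPM of paralogues 1 to 8 (left) and 9 to 13 (right) on linear vertical axes against the summed RPM of 10 endothelial markers (horizontal, log axis), with 1 point per library coloured by group. On the left the EOM grafts run from 3.77 RPM of Hox RNA at 236 RPM of markers to 71.8 RPM at 6680 RPM, while on the right the TA pre-graft library at 19.7 RPM of markers is the highest, at 191 RPM.

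The second comparison asks which members changed when EOM cells were placed in TA. Only 2 Hox genes passed the filter over 13094 genes, and both were called higher in EOM grafts, where 3.51% of all genes tested were called higher and 55.8% lower. A member could pass only through the grafts, since EOM pre-graft had almost no Hox reads, so the direction was set by the filter. With no filter 29 members were tested and 7 called higher (3.54% of all genes). *Hoxa5*, a gene of the cervical and upper thoracic level, had 3 reads in 1 of 8 EOM pre-graft libraries and 2, 8, 31, 38 and 45 reads in 5 of 7 EOM grafts. Its lowest, median and highest level in EOM grafts was 0, 5.43 and 27.2 RPM, so the groups overlap through the 2 grafts without a read. *Hoxb4*, an anterior gene of the hindbrain and neck, had no read in 8 EOM pre-graft libraries and 1 to 11 reads in 5 of 7 grafts, with a median of 3.14 RPM. The log2 differences of after minus before were 3.12 ± 0.88 for *Hoxa5* and 2.29 ± 0.62 for *Hoxb4* (SE), with limma's adjusted p of 0.00657 and 0.00542. The median over all genes tested was -1.48 in this comparison and -0.23 with each library centred on its median, where both calls remained (6.65% of all genes higher and 4.84% lower). With donor mice as a replicate block (6 pairs) no Hox gene passed the filter, and the same held without any 1 of 3 grafts, those of mice 3, 4 and 6 of Experiment 2, so the calls rest on each of them being present. Without the graft of mouse 1 or mouse 2 of Experiment 2, 1 of the genes was tested and called. With all 20 EOM libraries in the fit, 13 members were tested and 0 called (0.98% of all genes).

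Many of the other members were read in a single EOM graft. Of the 27 members with a read, 23 had none in EOM pre-graft, and 14 had reads in exactly 1 of the 7 grafts. *Hoxd3* had 2 to 12 reads in 4 grafts. *Hoxd4* had 2 to 10 reads in 3 grafts and *Hoxa7* 14 to 24 reads in 3. *Hoxa6* had 2 to 20 reads in 3 and *Hoxc8* 1 to 12 reads in 3. The members read in more than 3 grafts are thus *Hoxa5*, *Hoxb4* and *Hoxd3*, of which *Hoxa5* alone is among the 13 that told TA from EOM pre-graft.

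Of the 7 members read in every TA pre-graft library, the 6 with paralogue number 9 or above were nearly unread in EOM grafts. The other one, *Hoxa7*, had reads in 3 of 7 grafts. *Hoxa10* and *Hoxc11* had no read in 7 grafts, *Hoxc10* 1 read in 1 graft, *Hoxa11* 4 reads in 1, *Hoxa9* 6 reads in 1 and *Hoxc9* 14 reads in 1. At the depth of these grafts 3 reads correspond to 1.41 to 2.63 RPM, below the lowest TA pre-graft level of *Hoxc10* (19.7 RPM) and *Hoxa10* (13.7 RPM). The mean level of *Hoxa10* in TA pre-graft was at least 12.4-fold above what 3 reads per EOM graft would give, and that of *Hoxc11* at least 5.11-fold. The EOM grafts with no read of *Hoxc10* had summed MuSC markers of 1496 to 14096 RPM, and the 1 graft with a read had 3376 RPM. Grafts of few cells also miss RNA that is present, and how many of these zeros arise in that way was not tested.

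EOM grafts differed widely among themselves. The graft of mouse 4 of Experiment 1, which had the most cells of the 7 by the labels, held 8 Hox reads, 6 of *Hoxd8* and 2 of *Hoxa5*, and a summed level of 3.77 RPM. It had the highest MuSC marker sum of the 7 (14096 RPM) and the lowest endothelial marker sum (236 RPM). The grafts of mice 2 and 5 of Experiment 2 held 17.7 and 17.1 RPM of Hox RNA beside 1052 and 1361 RPM of endothelial markers. The other 4 held 58.3 to 77.1 RPM beside 3686 to 6680 RPM. Among the TA grafts the lowest Hox sums, 44.3, 54.2 and 92.8 RPM, stood beside 1462, 1605 and 2877 RPM of endothelial markers, and the other 4, at 115 to 245 RPM, beside 5002 to 7792 RPM. Of 10 endothelial markers tested, 9 were higher after grafting in EOM (3.51% of all genes) and 9 in TA (3.79%). Of 12 MuSC markers, 10 were lower in EOM grafts (55.8% of all genes) and 11 in TA grafts (30.9%). The same shares of all genes apply to the counts that follow. Of 8 mural and smooth muscle markers, 2 were higher and 2 lower in EOM grafts and 3 higher in TA grafts, and of 12 fibro-adipogenic markers 1 was higher and 3 lower in EOM grafts and 7 higher and 2 lower in TA grafts. Of 9 myofibre markers tested, 7 were higher in EOM grafts, and 2 were higher and 1 lower in TA grafts. Macrophage, tenocyte and Schwann cell markers summed to medians of 58.1, 29.2 and 56.1 RPM in EOM grafts and 28.3, 99.3 and 7.58 RPM in TA grafts. The part of these cell types in the Hox reads of the grafts was not tested.

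The third comparison asks how the Hox code of TA cells changed when they were moved into another TA. Of 21 members tested, 4 were higher after grafting (3.79% of all 13076 genes tested) and 5 lower (30.9%). The lower ones were *Hoxc9*, *Hoxc10*, *Hoxc11*, *Hoxa10* and *Hoxa6*. The first 4 of them were among the 7 members read in every TA pre-graft library. The higher ones were *Hoxa5*, *Hoxb4*, *Hoxd3* and *Hoxd4*, of paralogue groups 3 to 5. The share of members called lower is no larger than that of all genes, and the median over all genes tested was -1.09. With each library centred on its median, the median of all genes was -0.19, 4 members were higher (7.67% of all genes) and 4 lower (5.68%), *Hoxa6* being the one lost.

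*Hoxc10* fell from the leading position in the TA code. It had 14, 23, 22 and 2 reads in 4 of 7 TA grafts and none in the other 3, or 0, 1.27 and 12.5 RPM in the lowest, median and highest. Every TA graft lay below every TA pre-graft library. The log2 difference was -4.43 ± 0.82 (SE), with limma's adjusted p of 0.000933, and the mean level was 10.7-fold lower. *Hoxa10* had 5 to 20 reads in 4 TA grafts, with a median of 2.39 RPM, and *Hoxc11* 3 reads in 1. Neither overlapped its TA pre-graft levels, and non-overlap in the lower direction held for 3 members and for 4.97% of all genes tested. Their log2 differences were -3.41 ± 0.81 and -3.69 ± 0.71 (SE). *Hoxc11* passed the filter through TA pre-graft alone, so its direction was set by the filter. *Hoxc9* had reads in 6 of 7 TA grafts, with a median of 0.820 RPM against 24.7 RPM before, a highest level of 13.5 RPM that overlaps the lowest one before, and a log2 difference of -3.77 ± 0.83 (SE). The summed MuSC markers had a median of 18447 RPM in TA pre-graft and 3593 RPM in TA grafts. With edgeR on recovered reads the calls of *Hoxa10* and *Hoxc9* were lost (adjusted p = 0.208 and 0.0975) and those of *Hoxc10* and *Hoxc11* remained (adjusted p = 0.0334 and 0.0127). With DESeq2 the call of *Hoxa10* was lost too. *Hoxa6*, with 2 to 35 reads in 6 of 8 TA pre-graft libraries and 1 read in 2 of 7 grafts, was called at -2.27 ± 0.78 (SE), and the call was lost in 7 of the alternatives, the replicate block and both count tests among them. Like *Hoxc11*, it passed the filter through TA pre-graft alone.

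*Hoxa5* and *Hoxd4* went up in TA grafts. *Hoxa5* had reads in all 7, from 6 to 161, or 3.41, 19.2 and 77.0 RPM in the lowest, median and highest, against 0, 3.47 and 9.74 RPM pre-graft. The groups overlap, and 5 of 7 grafts lay above every pre-graft library. Its log2 difference was 2.36 ± 0.82 (SE, limma's adjusted p = 0.0303), and the call was lost without any 1 of 4 libraries, the TA grafts of mouse 3 of Experiment 1 and of mice 1 and 6 of Experiment 2 and the TA pre-graft library of mouse 3 of Experiment 2 (adjusted p up to 0.0628). *Hoxd4*, a paralogue of *Hoxb4*, had 2 to 22 reads in 6 of 7 TA grafts and none in 8 pre-graft libraries, with a log2 difference of 2.62 ± 0.72 (SE, limma's adjusted p = 0.0096). It was called in all 15 fits that leave out 1 library, and its mean level in grafts was at least 2.62-fold above what 3 reads per pre-graft library would give. However, *Hoxd4* passed the filter through the grafts alone, so its direction was set by the filter. *Hoxb4* had 5 to 38 reads in 6 of 7 TA grafts, or 0, 5.05 and 18.2 RPM in the lowest, median and highest, and overlapped its pre-graft levels of 0 to 6.09 RPM. *Hoxd3*, which overlaps *Hoxd4* on the same strand, had 4 to 30 reads in 6 of 7 grafts, with a median of 6.83 RPM, and its reads cannot be told from those of *Hoxd4* where they overlap. Its log2 difference was 2.34 ± 0.86 and that of *Hoxb4* 2.14 ± 0.83 (SE, adjusted p = 0.0389 and 0.0468), and both calls were lost in the replicate block, in Experiment 2 alone, with all libraries, with no filter and with edgeR. Leaving out 1 library, *Hoxd3* was called in 5 of 15 fits and *Hoxb4* in 3. The call of *Hoxa5* was lost in Experiment 2 alone.

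*Hoxa7* had reads in every TA graft, as *Hoxa3* and *Hoxa5* did. It had 5 to 47 reads in the 7 libraries, at 14.4 ± 10.1 RPM (SD, n = 7) against 13.2 ± 3.01 RPM pre-graft (SD, n = 8), a log2 difference of -0.19 ± 0.63 (SE), which leaves changes of over 1 on this scale inside its error. *Hoxa9* and *Hoxa11* had reads in 4 of 7 grafts each, with log2 differences of -2.14 ± 0.89 and -1.62 ± 0.84 (SE, adjusted p = 0.0599 and 0.126). Among members of clusters B and D that were not called, *Hoxb9* had 2 to 26 reads in 4 of 7 TA grafts, *Hoxb7* 1 to 29 in 4, *Hoxd8* 4 to 59 in 3 and *Hoxb6* 2 to 5 in 3. *Hoxc4*, *Hoxc5* and *Hoxc6* had reads in 4 each and log2 differences of -0.08, -1.497 and -0.89. The plot of 8 members sets these patterns side by side.

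**Figure D4:**
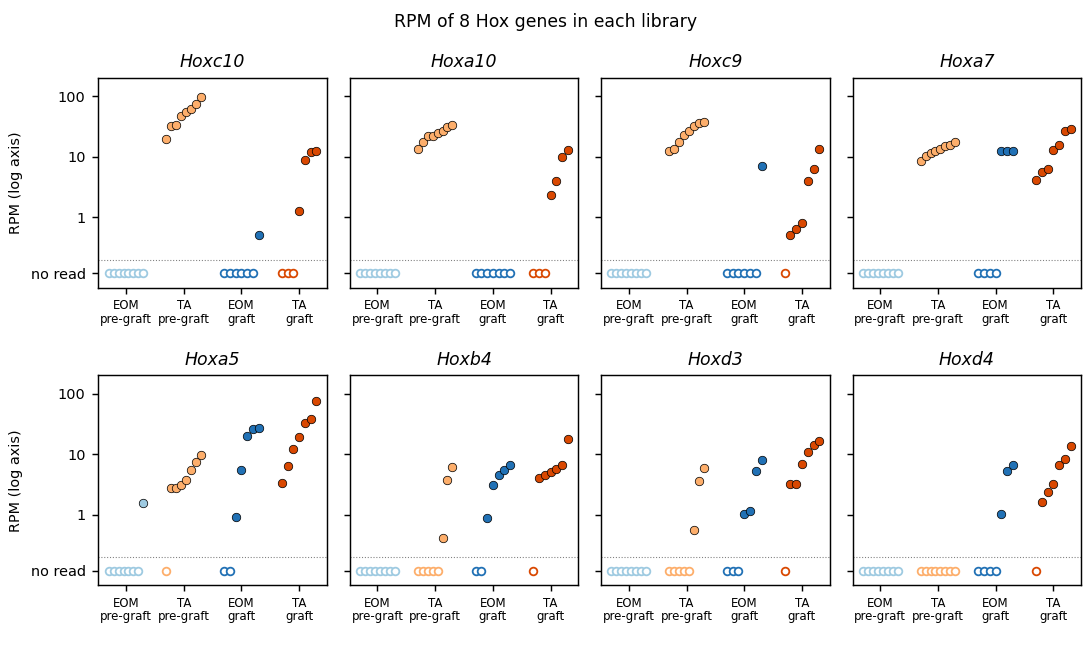
RPM of 8 Hox genes (vertical log axis, open points at the bottom mark libraries without a read) in the 4 groups, with 1 point per library. *Hoxc10*, *Hoxa10* and *Hoxc9* are high in TA pre-graft and nearly absent from EOM grafts, *Hoxa7* has reads in every TA library before and after grafting, and *Hoxa5*, *Hoxb4*, *Hoxd3* and *Hoxd4* have more reads in both kinds of graft than in the pre-graft libraries of the same muscle.

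The promoters of genes that moved in opposite directions are shown to give the sequence behind the names. The stretches are the 250 bases before the annotated start, from RefSeq on GRCm38.p6, 5′ to 3′ on the strand of the gene, with CG dinucleotides, the sites of DNA methylation, in capitals. The RefSeq table held 22 of the 39 members, and *Hoxc9*, *Hoxc10* and *Hoxc11* were not among them. The start equals that of the deposited gene for the 3 shown, and *Hoxa10* has a second annotated start, whose stretch (chr6:52234940-52235189) holds 20 CG dinucleotides and is not shown. By limma *Hoxa10* (chr6:52240855-52241104, minus strand) was lower in TA grafts, and it was unread in EOM grafts. *Hoxa5* (chr6:52204588-52204837, minus strand) and *Hoxd4* (chr2:74721728-74721977, plus strand) were higher in TA grafts by limma.
Hoxa10: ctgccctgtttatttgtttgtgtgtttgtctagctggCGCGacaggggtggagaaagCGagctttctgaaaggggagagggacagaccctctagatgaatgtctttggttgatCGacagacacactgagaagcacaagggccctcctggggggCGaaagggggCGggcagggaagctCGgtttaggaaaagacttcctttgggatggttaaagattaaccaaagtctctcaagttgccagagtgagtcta
Hoxa5: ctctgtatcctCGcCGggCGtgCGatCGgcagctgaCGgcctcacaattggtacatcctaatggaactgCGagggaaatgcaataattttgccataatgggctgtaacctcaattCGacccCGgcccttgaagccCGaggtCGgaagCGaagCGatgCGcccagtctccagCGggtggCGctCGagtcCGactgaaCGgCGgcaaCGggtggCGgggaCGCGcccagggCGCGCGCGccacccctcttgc
Hoxd4: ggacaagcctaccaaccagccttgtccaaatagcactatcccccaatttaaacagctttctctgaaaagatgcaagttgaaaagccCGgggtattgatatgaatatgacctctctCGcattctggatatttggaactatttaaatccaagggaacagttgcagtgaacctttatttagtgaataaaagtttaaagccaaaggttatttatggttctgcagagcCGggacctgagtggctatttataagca
The stretch of *Hoxa5* holds 28 CG dinucleotides, that of *Hoxa10* 7 and that of *Hoxd4* 3. Of 32851 such stretches in the genome, 7.61% hold at least 28, 46.3% at least 7 and 71.0% at least 3. The motif TGACAG, bound by Meis and Pknox factors, was searched on both strands and is in none of the 3, against 15.9% of all stretches. The E-box CAGCTG is in that of *Hoxa5* and in 13.001% of all stretches, and TGATTNAT, a joint site of Pbx and Hox factors, is in none of the 3 and in 2.82% of all. The start of *Hoxa5* lies within the span of *Hoxa3* on the same strand. The bisulfite libraries of these samples are not analysed here.

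The fourth comparison sets TA grafts against EOM grafts. No gene of 12377 was called in either direction by limma (0% of all genes), nor by edgeR, and at an unadjusted p under 0.05 limma gave 452 genes, 2 of them Hox genes, edgeR 347, while DESeq2 called 3 genes, none of them Hox. The 12 members tested passed the filter mainly through reads in TA grafts, so their directions are not read as a result. The median log2 difference of TA minus EOM grafts was 1.498 over these 12, and 0.79 over the 35 members of a fit with no filter, where 0 were called. *Hoxa7* was at 2.43 ± 1.11 and *Hoxa10* at 1.95 ± 0.84 (SE), with unadjusted p of 0.0348 and 0.027. The groups overlapped for every member. *Hoxa10* had reads in 4 of 7 TA grafts and in 0 of 7 EOM grafts, *Hoxc10* in 4 and 1, *Hoxc9* in 6 and 1, *Hoxa9* in 4 and 1, *Hoxa11* in 4 and 1, and *Hoxc5* in 4 and 0. In simulated reads for this comparison limma recovered 88% of genes changed by a log2 of 3 and 11% of those changed by 1.5. Among those genes a difference of the smaller size was mostly not detectable. They were drawn from above the mean level of nearly all Hox members in grafts. The shares therefore do not give what was detectable for Hox members.

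The fifth comparison follows the study's correction, in which the mean change of TA cells on grafting is deducted from the grafts. For each gene this gives the EOM change minus the TA change. Over 14428 genes, 3 of 22 members tested were higher, against 0.0554% of all genes, and none was lower (0.152%). They were *Hoxc11* at 4.11 ± 0.70, *Hoxc10* at 4.87 ± 0.98 and *Hoxc9* at 4.75 ± 0.99 (SE), with limma's adjusted p of 0.00138, 0.0141 and 0.0207. This difference has 2 terms, and for these genes the TA term carries most of it. None of the 3 had a read in EOM pre-graft, so their EOM term could not be a loss of reads. *Hoxc11* had no read in any of 15 EOM libraries, its own EOM change of 0.41 is the difference between the values that stand for no read, and the TA change that is deducted was -3.69. For *Hoxc10* the EOM change was 0.44 and the TA change -4.43, and for *Hoxc9* 0.98 and -3.77.

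The same arithmetic applies to the 13 genes that were higher in TA pre-graft. On a scale where EOM pre-graft is at 0% and TA pre-graft at 100%, the corrected EOM grafts were at a median of 64.7% over these genes (27.1% to 150%), and without the deduction at 17.7% (6.38% to 112%). For the 6 of them with paralogue number 9 to 11 the medians were 68.9% with and 13.3% without the deduction. For the 7 with paralogue number 3 to 8 they were 51.9% and 46.9%. *Hoxa5* went the other way, from 112% without the deduction to 27.1% with it, since it rose in TA grafts too. *Hoxc5*, *Hoxa10* and *Hoxc11* had no read in any EOM graft and stood at 59.4%, 66.3% and 96.3% after the deduction. The calls of the fifth comparison depend on the fit, with 0 members called higher in the replicate block of donor mice (0.0512% of all genes), 0 by edgeR (0.00693%) and 3 by DESeq2 (*Hoxc9*, *Hoxa6* and *Hoxa7*, 0.492%). In the replicate block 9 of 19 members had an unadjusted p under 0.05, with adjusted p of 0.0640 for *Hoxc11*, 0.301 for *Hoxc10* and 0.262 for *Hoxc9*, and by edgeR 11 of 22 had one. With all 40 libraries in the fit 0 were called. Without the TA graft of mouse 3 of Experiment 1 the call of *Hoxc9* was lost (limma's adjusted p = 0.0506).

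**Figure D5:**
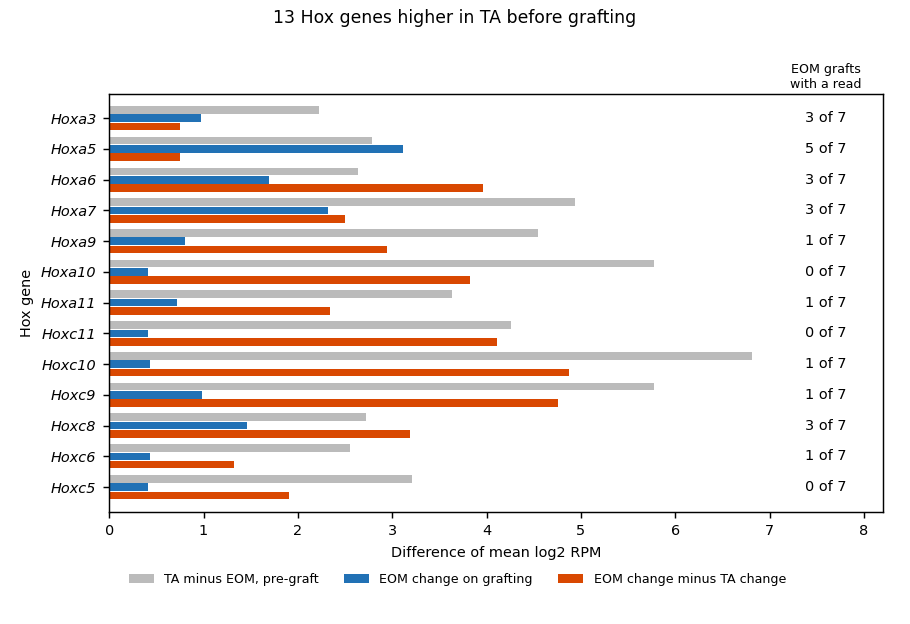
Differences of mean log2 RPM (horizontal axis) for the 13 Hox genes that were higher in TA pre-graft (vertical axis), as TA minus EOM pre-graft (grey), the EOM change on grafting (blue) and the EOM change minus the TA change (orange), with the number of EOM grafts with a read at the right. For *Hoxc9*, *Hoxc10*, *Hoxc11* and *Hoxa10* the blue bars are under 1 while the orange bars are over 3.

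Genes that work with Hox proteins or lie in or beside the clusters were also measured. The 9 TALE cofactors (Meis, Pbx and Pknox), which bind DNA together with Hox proteins, had reads in all groups, at a summed median of 259 and 251 RPM in EOM and TA pre-graft and 123 and 118 RPM in EOM and TA grafts. Of 8 tested between TA and EOM pre-graft, 1 was called, *Pknox2*, lower in TA at -1.18 ± 0.29 (SE, where 3.31% of all genes were called lower), and 0 of 8 between the grafts. The Cdx genes, which set Hox expression in the embryo, had no read in EOM pre-graft or in either kind of graft and a single level of 0.812 RPM in 1 TA pre-graft library. Of 19 noncoding RNAs of the clusters, 7 are in the table and 3 were tested between TA and EOM pre-graft. They had no read in EOM pre-graft, passed the filter through TA alone, and all 3 were called higher in TA (1.26% of all genes): *Hotair*, which lies between *Hoxc11* and *Hoxc12*, at 4.21 ± 0.54, *Hoxa11as* at 3.98 ± 0.67 and *2700086A05Rik* at 3.23 ± 0.50 (SE). About 50% of reads fall on the sense strand in every library, so reads of *Hoxa11* and *Hoxa11as* cannot be told apart where they overlap. The same holds for *2700086A05Rik* with *Hoxa3* to *Hoxa7*. It also holds for *Hoxa3* with *Hoxa4*, *Hoxa5* and *Hoxa6*, and for *Gm20398* with *Hoxc5*, *Hoxc6*, *Hoxc8*, *Hoxc9* and *Hoxc10*, on the same strand. *Hotair* was lower in TA grafts, at -2.33 ± 0.81 (SE, limma's adjusted p = 0.03). Of the genes that flank the clusters, 7 were tested between TA and EOM pre-graft and 0 were called.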

How the data were processed

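RNA was read by G&T-seq, which separates polyadenylated RNA from the genome of the same cells, and sequenced as paired 75 bp reads. The authors trimmed reads with Trim Galore 0.4.4, aligned them to GRCm38 with HISAT2 2.1.0 and quantified genes in Seqmonk. They deposited log2 values per gene, corrected for library size. The quality files the authors deposited give read counts and percentages per library, and a total read length treated as a score. The deposited log2 values were turned into whole reads and RPM (reads scaled to library size) from their steps. Of values above the floor, 99.9939% were whole within 0.05 reads, and a gene without a read stands at 0.9 reads. The RPM are relative to a total in the authors' scaling and sum to 1072417 to 1526294 over genes.

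Libraries were grouped by the labels, and 10 that fail the study's quality table were left out. The log2 RPM were compared with limma 3.58.1 in R 4.3.3 for genes above a log2 RPM of 1 in at least 4 libraries. Calls needed an adjusted p (Benjamini-Hochberg) under 0.05 and a log2 difference over 1. The 5 comparisons share libraries, so their values for a gene are not independent. The count tests of edgeR 4.0.16 and DESeq2 1.42.0 on recovered reads, donor mouse as replicate block, other filters, scalings and library sets were alternatives. Donor numbers pair the libraries, since EOM and TA cells and grafts of a number come from one mouse. Deviations of paired libraries from their group means correlated across genes with medians of -0.04 to 0.05 over 6 or 7 donors. In simulated reads of 13256 genes for TA against EOM grafts, limma recovered 88% of genes changed by a log2 of 3. Of those changed by 1.5 it recovered 11%. The changed genes had higher mean levels than nearly all Hox members in grafts. The members, lists and tests were chosen with earlier results of these data known. Each number within an experiment is a separate donor, and the 40 bisulfite libraries are not analysed here.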

Additional observations from a re-analysis of the deposited data

Results flagged for a closer look

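In 7 of 55 groups of libraries tested, 1 library stood farther from the others than Dixon's limit allows (0.568 of the range for 7 libraries, 0.526 for 8), a gap that chance gives in about 1 in 20 groups. The TA graft of mouse 3 of Experiment 1 stood apart for *Hoxa11* (15.8 RPM, next 4.04), *Hoxa3* (15.8 RPM, next 4.55) and *Hoxb4* (18.2 RPM, next 6.74). The TA graft of mouse 2 of Experiment 2 did so for the sum of cluster C (58.6 RPM, next 19.9) and for *Hoxc5* (9.85 RPM, next 4.10). The TA pre-graft library of mouse 3 of Experiment 2 did so for *Hoxa9* (30.7 RPM, next 15.1), and the EOM pre-graft library of mouse 4 of Experiment 1 for the sum of paralogues 1 to 4 (2.60 RPM, next 1.19).

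By limma, the change on grafting differed between EOM and TA cells for *Hoxc11* (log2 difference of changes 4.11), *Hoxc10* (4.87) and *Hoxc9* (4.75). None of these had a read in EOM pre-graft, so their EOM change could not be a loss of reads. Of 11 alternative fits, the call was kept in 7 for *Hoxc11*, 5 for *Hoxc10* and 6 for *Hoxc9*. Outside the libraries compared, the 3 EOM grafts that fail the quality table held 164, 37.8 and 63.5 RPM of Hox RNA (287, 81 and 131 reads), above the highest EOM pre-graft library at 4.78 RPM.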

How the results depend on the processing

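The count of members higher in TA pre-graft, 13, was 6 with the stricter filter (1.2% of all genes in that fit), 7 in Experiment 2 alone (0.77%), 3 with all libraries (0.194%) and 10 to 12 leaving out 1 library. In EOM on grafting, 2 became 7 of 29 with no filter (3.54% of all genes higher), 0 of 13 with all libraries (0.98%), 5 of 22 in 1 fit over the 4 groups (3.84%) and 1 to 2 leaving out 1 library. There the stricter filter, the replicate block and 3 of the fits without 1 graft left no Hox gene to test. In TA on grafting, 9 became 5 in Experiment 2 alone (1 higher, 1.59% of all genes, and 4 lower, 14.5%), 4 with edgeR (2 higher, 5.98%, and 2 lower, 3.07%) and 6 to 10 leaving out 1 library. Between grafts it was 0 to 0 leaving out 1 library. For the difference of changes, 3 became 1 with no filter (0.0184% of all genes), 0 in the replicate block (0.0512%), 1 in Experiment 2 alone (0.036%), 0 with all libraries (0%), 0 with edgeR (0.00693%) and 2 to 4 leaving out 1 library. The replicate block of donor mice gave 12 calls pre-graft (2.04% of all genes higher), 6 in TA on grafting (2 higher, 3.72%, and 4 lower, 25.2%) and 0 between grafts. Scaled without mitochondrial genes, the mean Hox sum was 90.9 RPM in EOM grafts and 195 RPM in TA grafts. The median position of EOM grafts was 17.7% without the TA change deducted, and 60.3% to 68.9% leaving out 1 library. Over the named genes, 556 values kept their side of the threshold, 54 lost the call, 7 gained it and 0 reversed a call. Direction was not compared where neither fit made a call. Causes were not tested. A gene without a read in a library may still be present at up to the level of 3 reads.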
